A study of Arabidopsis thaliana with 6 samples.

Results

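The genes described here are 10 Arabidopsis thaliana genes whose transcripts are used as markers of darkness and low sugar, out of 33323 genes listed in the deposited tables. They were taken by gene ID: AKINBETA1 (AT5G21170), TPS8 (AT1G70290), TPS9 (AT1G23870), TPS10 (AT1G60140), TPS11 (AT2G18700), SEN1 (AT4G35770), DIN2 (AT3G60140, also BGLU30), DIN10 (AT5G20250), DRM1 (AT1G28330, DYL1 in RefSeq) and BGAL4 (AT5G56870). They were selected on their higher RPKM in hid1 than in WT in earlier results of these data, so those differences are given as a description, with no p-value, and nothing is drawn from how many of them passed a test. Seedlings, 5 days old, of the hid1 (hidden treasure 1) mutant and of the wild type (WT) were each represented by 3 poly(A) RNA libraries, which the submitters describe as biological replicates. The labels give cR as the growth condition, known from the study to mean continuous red light. The HID1 gene makes a noncoding RNA needed for full photomorphogenesis, the change of form of a seedling in light. The labels give no allele, ecotype or sugar content of the medium and do not say how many seedlings a library pooled, and the mutated gene itself is not reported because no gene ID could be tied to its name.

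Plant cells sense a shortage of sugar, as occurs in prolonged darkness, through SnRK1, a protein kinase related to yeast SNF1 and animal AMPK that is built from a catalytic alpha subunit, a beta subunit and a gamma-type subunit. Active SnRK1 changes the transcript levels of many genes, in part through bZIP transcription factors of groups C and S1, and genes that release or recycle carbon and nitrogen are switched on. Trehalose 6-phosphate, made by trehalose phosphate synthase (TPS), rises with sucrose and restrains SnRK1. The DIN (dark inducible) genes were named for transcripts that appear in leaves placed in the dark and are repressed by sugar.

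Values are the authors' RPKM, read numbers scaled to gene length and to library size, which can be compared between genes. Estimated depth was 17.4 to 23.0 M reads in hid1 libraries and 20.0 to 26.4 M reads in WT libraries, and the depths overlapped. Green tissue markers were high in all libraries, the lowest being PSAD1 at 1643 RPKM in hid1 replicate 3, and 2 of 5 (LHCA1 and PSAD1) fell, calls lost in 7 and 8 of 12 other settings. Among root markers, EXPA7 and SCR were present in all 6 libraries. The 10 root markers other than IRT1 summed to 196, 105 and 140 RPKM in hid1 and to 114, 53.0 and 58.0 RPKM in WT. PRP3 was the largest of these in each library, at 109 RPKM in hid1 replicate 1. IRT1 was lower in hid1, at 6.26 ± 1.46 RPKM against 36.2 ± 12.3 RPKM in WT. With IRT1 the sums were 200, 112 and 148 RPKM in hid1 and 164, 82.2 and 86.9 RPKM in WT. Either way, WT replicate 1 lay above hid1 replicate 2. Of the 8 root markers tested, 3 rose (EXPA7, PRP3 and SCR), 1 fell (IRT1) and 4 missed the threshold, and over all settings 0 to 5 rose. PLT1, PLT2 and WOX5 were under the level tested, between 0.05 RPKM for PLT2 and 1.23 RPKM for WOX5. The part of root tissue in the results below was not tested. In whole seedlings, fewer cells of a type and less RNA per cell cannot be told apart.

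The stretches before the annotated gene starts are shown for SEN1 and DIN10, which had the highest mean levels in hid1, and for the 4 TPS genes, which belong to one family. In WT the mean of DRM1 lay above that of SEN1. They were read from the RefSeq TAIR10.1 genome by its own annotation, 5′ to 3′ on the gene's strand. Capitals mark ACGT (the core bound by bZIP factors), TATCCA (a sugar response motif known from rice amylase genes) and GATAAG (an I-box core known from light-regulated genes), on either strand.
SEN1, chr4:16944758-16944877, plus strand: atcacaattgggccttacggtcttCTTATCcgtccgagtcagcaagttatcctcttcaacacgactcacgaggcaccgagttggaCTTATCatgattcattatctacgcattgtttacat
DIN10, chr5:6833264-6833563, plus strand: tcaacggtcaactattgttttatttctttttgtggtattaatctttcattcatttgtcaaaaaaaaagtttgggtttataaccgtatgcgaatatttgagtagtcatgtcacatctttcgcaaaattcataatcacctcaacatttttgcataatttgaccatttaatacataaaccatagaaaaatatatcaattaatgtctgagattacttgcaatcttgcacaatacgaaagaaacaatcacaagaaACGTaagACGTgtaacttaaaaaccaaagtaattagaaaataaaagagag
TPS8, chr1:26474834-26475133, minus strand: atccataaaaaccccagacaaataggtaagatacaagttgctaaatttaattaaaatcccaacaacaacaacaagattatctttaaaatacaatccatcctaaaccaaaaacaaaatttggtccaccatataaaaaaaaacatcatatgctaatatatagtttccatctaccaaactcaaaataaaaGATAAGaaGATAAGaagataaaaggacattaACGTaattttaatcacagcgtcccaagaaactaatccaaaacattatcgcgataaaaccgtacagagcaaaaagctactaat
TPS9, chr1:8431879-8432178, plus strand: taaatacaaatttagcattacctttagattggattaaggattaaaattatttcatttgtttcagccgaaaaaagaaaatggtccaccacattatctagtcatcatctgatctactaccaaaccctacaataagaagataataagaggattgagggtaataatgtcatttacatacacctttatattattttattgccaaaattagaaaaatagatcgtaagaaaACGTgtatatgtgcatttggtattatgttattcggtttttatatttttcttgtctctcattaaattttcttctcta
TPS10, chr1:22181741-22182040, minus strand: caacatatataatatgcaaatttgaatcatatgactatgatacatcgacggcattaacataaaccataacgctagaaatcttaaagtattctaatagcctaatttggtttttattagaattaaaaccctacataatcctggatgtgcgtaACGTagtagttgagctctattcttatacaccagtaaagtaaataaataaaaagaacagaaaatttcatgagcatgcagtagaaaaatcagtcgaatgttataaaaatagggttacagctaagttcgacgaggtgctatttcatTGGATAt
TPS11, chr2:8108598-8108897, plus strand: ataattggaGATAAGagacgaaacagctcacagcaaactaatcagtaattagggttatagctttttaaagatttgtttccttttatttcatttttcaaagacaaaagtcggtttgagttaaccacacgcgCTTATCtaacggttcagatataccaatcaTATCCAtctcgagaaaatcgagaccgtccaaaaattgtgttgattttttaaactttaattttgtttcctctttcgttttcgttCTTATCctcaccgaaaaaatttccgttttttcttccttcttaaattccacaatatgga
The windows of DRM1 and AKINBETA1, not shown, overlap other annotated genes. The SEN1 stretch is the 120 bases next to its start, since the rest of its window reaches the neighbouring gene LTO1. Over the 300 bases before all 10 genes, the G-box CACGTG was in 0, against 7.2% of 26711 protein-coding promoters of the same length. ACGT, which CACGTG contains, was in 4 of the 10 (DIN10, TPS8, TPS9 and TPS10), against 49.1% of promoters. TATCCA was in 3 (AKINBETA1, TPS10 and TPS11), against 16.2%, and GATAAG in 4 (SEN1, DRM1, TPS8 and TPS11), against 14.5%. No motif searched was in the DIN2 or BGAL4 window. The longest run of identical letters between any pair of the 10 windows was 12 bases. TPS8 and TPS9, the pair most alike in coding sequence, shared such a run, as did 3 other pairs from different families. A match is a description of letters and shows no binding.

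AKINBETA1 encodes a beta subunit of SnRK1, which holds the complex together. It stood at 59.8, 54.3 and 56.3 RPKM in the hid1 libraries, against 24.2, 23.1 and 29.2 RPKM in the WT libraries. The genotypes did not overlap, and the lowest hid1 library was 1.86 times the highest WT library. Means were 56.8 ± 2.80 RPKM in hid1 and 25.5 ± 3.24 RPKM in WT (SD, n = 3 each), with a log2 fold change of 1.13 (SE 0.12) on the log2(RPKM + 1) scale used for all fold changes here, which understates the change of low genes. Of the summed RPKM of the 3 beta subunit genes, AKINBETA1 made up 67.1%, 63.4% and 62.5% in hid1 and 44.9%, 43.1% and 50.6% in WT. AKINBETA2 stood at 20.4 ± 0.866 RPKM in hid1 and 19.3 ± 1.21 RPKM in WT, with overlapping libraries (limma adjusted p = 0.688). AKINBETA3 stood at 11.1 ± 1.46 RPKM in hid1 and 10.3 ± 1.17 RPKM in WT (limma adjusted p = 0.691).

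Of the 6 other SnRK1 subunit genes, all tested, 1 rose, 0 fell and 5 did not pass. The rise was in KING1, annotated as a gamma-type subunit, with 49.4, 49.6 and 58.4 RPKM in hid1 against 33.8, 28.2 and 29.6 RPKM in WT (0.76, SE 0.12, limma adjusted p = 0.00210). The catalytic subunit gene KIN10 was at 21.1 ± 1.08 RPKM in hid1 and 16.1 ± 1.54 RPKM in WT, and its libraries did not overlap, but it did not pass (limma adjusted p = 0.0596). The other catalytic gene, KIN11, was at 13.3 ± 0.494 and 11.0 ± 0.105 RPKM in hid1 and WT (limma adjusted p = 0.150). The median log2 fold change of this list was 0.25, against 0.07 over all 18871 genes tested. Across all genes tested, 13.6% were called at an adjusted p of 0.05 or less, 9.41% higher in hid1 and 4.21% lower. The higher share of all calls, 69.1%, was 49.5% with quantile normalization and 52.0% with median-ratio scaling.

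TPS8, TPS9, TPS10 and TPS11 belong to class II of the TPS family, whose proteins carry a synthase-like and a phosphatase-like part and are regarded as mainly regulatory. TPS9 was the most abundant of the 4, at 44.4, 38.6 and 42.4 RPKM in hid1 and 22.8, 24.2 and 25.0 RPKM in WT. TPS10 stood at 28.4, 27.2 and 28.5 RPKM in hid1, against 15.6, 13.7 and 14.8 RPKM in WT. TPS11 had 25.4, 25.0 and 26.9 RPKM in hid1 and 10.9, 11.8 and 14.8 RPKM in WT. For each of these genes all hid1 libraries lay above all WT libraries. The same held for TPS8, at 27.5, 23.8 and 25.2 RPKM in hid1 against 16.0, 14.9 and 17.2 RPKM in WT. Log2 fold changes were 0.64 for TPS8, 0.77 for TPS9, 0.89 for TPS10 and 1.00 for TPS11, with SEs of 0.11 to 0.13. The ratio of means ran from 1.59 for TPS8 to 2.06 for TPS11. TPS11 made up 20.2%, 21.8% and 21.9% of the summed RPKM of the 4 genes in hid1, against 16.7%, 18.3% and 20.6% in WT. The share of TPS8 was 21.9%, 20.8% and 20.5% in hid1 and 24.5%, 23.1% and 23.9% in WT. TPS9 had overlapping shares, 33.7% to 35.3% in hid1 and 34.9% to 37.4% in WT. The shares of TPS10 also overlapped, at 22.6%, 23.7% and 23.2% in hid1 and 23.8%, 21.2% and 20.6% in WT. So did those of TPS11, and only the TPS8 shares did not.

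The other class II genes, TPS5, TPS6 and TPS7, are set beside them in the plot of class II levels. TPS6 rose, with 14.5, 13.7 and 14.9 RPKM in hid1 and 8.39, 9.57 and 11.1 RPKM in WT (0.53, SE 0.13, limma adjusted p = 0.0224). This call was lost with quantile normalization, without any one of the hid1 libraries and without WT replicate 2 (adjusted p up to 0.0717). TPS7 was at 38.2, 34.8 and 41.5 RPKM in hid1 and 31.5, 33.6 and 32.5 RPKM in WT, again with no overlap, and TPS5, which sugar is known to induce, at 5.85 ± 1.90 RPKM in hid1 and 7.67 ± 0.374 RPKM in WT. Neither passed (limma adjusted p = 0.200 and 0.203). TPS8 to TPS11 together held 68.4%, 68.5% and 65.7% of the summed class II RPKM in hid1 and 57.7%, 55.9% and 58.5% in WT. Coding sequences of TPS8 and TPS9 were 79.7% identical, those of TPS10 70.8% identical to TPS8 and 71.2% to TPS9, and those of TPS11 61.0% to 62.4% identical to the other three. The longest identical run between any pair of the 7 class II coding sequences was 32 bases, in TPS8 and TPS9. How the authors treated reads that map to several places is not known here.

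**Figure D1:**
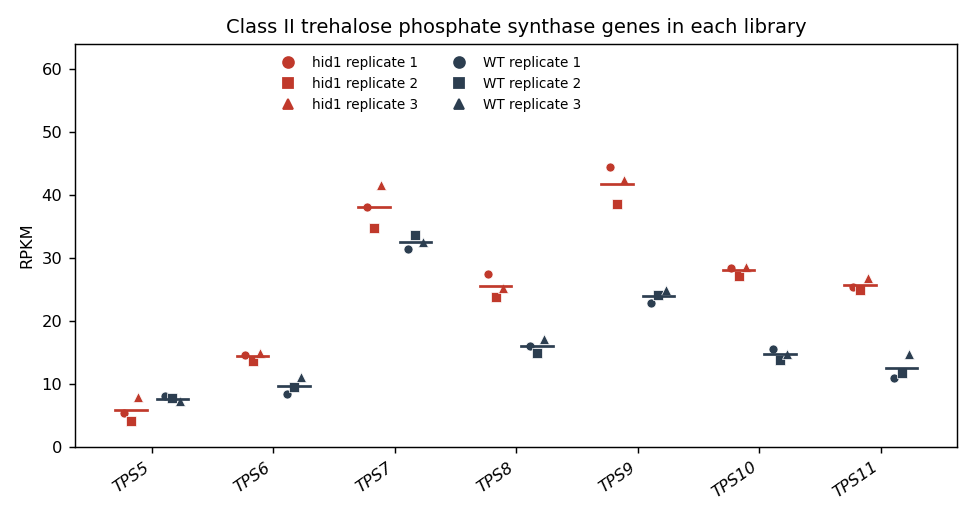
RPKM (linear axis) of the 7 class II TPS genes in each hid1 (red, left) and WT (dark, right) library, with marker shapes for replicates and bars for means. All hid1 points lie above all WT points for TPS6 and TPS7 as well as for TPS8 to TPS11, while the TPS5 points of the genotypes overlap.

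Of the 18 remaining genes of trehalose phosphate metabolism, 13 were abundant enough to be tested, and 4 of these rose, 0 fell and 9 missed the threshold (median log2 fold change 0.04). TPS1, the main active synthase, stood at 13.2 ± 2.56 RPKM in hid1 and 15.6 ± 0.769 RPKM in WT (limma adjusted p = 0.286). TPPI, a trehalose phosphate phosphatase gene, rose, with 4.08, 8.40 and 5.29 RPKM in hid1 and 1.00, 1.90 and 1.53 RPKM in WT (1.45, SE 0.23, limma adjusted p = 0.00270). TRE1, the trehalase that splits trehalose into glucose, rose to 4.40 ± 0.788 RPKM in hid1, against 1.85 ± 0.305 RPKM in WT (0.92, SE 0.17, limma adjusted p = 0.00590). The phosphatase gene TPPG also rose, to 5.95 ± 0.387 RPKM in hid1 against 3.62 ± 0.563 RPKM in WT (limma adjusted p = 0.0224), but lost its call without hid1 replicate 2 or 3, without WT replicate 2 or 3 and without a filter on low values (adjusted p up to 0.0890). The phosphatase genes TPPB, TPPE and TPPH had all hid1 libraries below all WT libraries and did not pass (limma adjusted p = 0.0640, 0.0609 and 0.0542), but these calls depended on the setting. All 3 passed as lower with quantile normalization and with the replicate block, TPPE and TPPH with median-ratio scaling or without WT replicate 1, TPPE without hid1 replicate 3 and TPPB without WT replicate 3 (adjusted p between 0.0250 and 0.0488). TPS3, TPS4 and TPPC were listed at 0 in all 6 libraries.

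SEN1, also named DIN1, marks darkened and senescing leaves and is widely used to read low-sugar responses. Its level was 366, 295 and 376 RPKM in hid1 libraries, against 45.9, 38.1 and 90.4 RPKM in WT libraries. WT replicate 3 was the highest WT library and the lowest hid1 library was 3.26 times as high. Means were 346 ± 44.0 RPKM in hid1 and 58.1 ± 28.2 RPKM in WT (SD, n = 3 each), a ratio of 5.95 and a log2 fold change of 2.64 (SE 0.26). This was the largest fold change of the 10 genes, at percentile 99.9 of all genes tested. SEN1 also had the widest relative spread in WT among the genes above 1 RPKM, 48.6% of its mean, against 12.7% in hid1.

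DIN10 encodes a protein of the raffinose synthase family (RS6). It stood at 336, 315 and 362 RPKM in hid1, against 127, 131 and 163 RPKM in WT, with no overlap (log2 fold change 1.27, SE 0.12). SEN1 was at 1.09, 0.94 and 1.04 times the level of DIN10 in the hid1 libraries, and at 0.36, 0.29 and 0.55 times that level in the WT libraries. The gene overlaps AT5G20260 on the opposite strand, which was listed at 0.32 RPKM or less in each library. RS2, another gene of the raffinose synthase family, rose. It was at 51.9, 40.6 and 80.8 RPKM in hid1 and 30.5, 31.6 and 31.3 RPKM in WT (0.81, SE 0.20, limma adjusted p = 0.0238), and lost its call without WT replicate 2 or 3 or without a filter (adjusted p up to 0.0878). RS5, of the same family, and GOLS1, a galactinol synthase gene, did not pass (limma adjusted p = 0.206 and 0.559).

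DRM1 encodes a small protein of the dormancy and auxin associated family, abundant in dormant buds. Its level was 226, 196 and 190.3 RPKM in hid1 and 127, 87.5 and 131 RPKM in WT. The genotypes did not overlap, and the log2 fold change was 0.84 (SE 0.15). Unlike the other 9 genes, DRM1 was lowest in hid1 replicate 3 among the hid1 libraries. Its paralogue DRM2, 61.2% identical in coding sequence, stood at 879.8, 800.2 and 815 RPKM in hid1 and at 376, 249.5 and 422 RPKM in WT (1.28, SE 0.18, limma adjusted p = 0.00103). Both were lowest in WT replicate 2 among the WT libraries.

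DIN2 encodes a beta-glucosidase, a family that splits sugar from glucosides. It was the least abundant of the 10, at 1.48, 0.66 and 2.91 RPKM in hid1 and 0.41, 0.13 and 0.55 RPKM in WT. The highest WT library lay just under the lowest hid1 library. These levels correspond to about 60, 34 and 156 reads in hid1 and 20, 6 and 34 reads in WT, from the estimated depth and TAIR10.1 exon length. DIN2 was the only one of the 10 to reach the filter of a mean of 1 RPKM in hid1 alone. Its log2 fold change, 0.90 (SE 0.29), depended on the pseudocount, at 1.86 with a pseudocount of 0.1 and 0.30 with a pseudocount of 5. Its closest relative by coding sequence, BGLU28 (73.7% identical), fell, with 0.32, 0.20 and 0.89 RPKM in hid1 and 2.88, 2.94 and 2.61 RPKM in WT (-1.40, SE 0.20, limma adjusted p = 0.00145). BGLU28 reached the filter in WT alone. Its log2 fold change also depended on the pseudocount, at -2.54 with 0.1 and -0.52 with 5. BGLU29, 72.0% identical to DIN2 with an identical run of 42 bases, was at 0.05 RPKM or less in each library. Of the 6 beta-glucosidase relatives only BGLU28 and BGLU16 were abundant enough to be tested, and BGLU16 did not pass (limma adjusted p = 0.165).

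BGAL4 encodes a beta-galactosidase, a family that trims galactose from cell wall polymers. Its level was 67.4, 52.3 and 67.8 RPKM in hid1 and 27.9, 27.0 and 31.8 RPKM in WT, with no overlap (log2 fold change 1.08, SE 0.13). AT5G56880, which overlaps BGAL4 on the opposite strand, was at 2.01 RPKM or less in each library. Of the summed RPKM of BGAL4 and 11 other BGAL genes, BGAL4 held 15.3%, 13.4% and 14.3% in hid1 and 9.9%, 9.2% and 10.6% in WT. Among the 11 others, all tested, 3 rose, 1 fell and 7 missed the threshold (median log2 fold change 0.24). BGAL1, the most abundant, rose, with 197, 182 and 212 RPKM in hid1 and 94.9, 94.8 and 98.2 RPKM in WT (1.03, SE 0.10, limma adjusted p = 0.000173). BGAL7 (2.63 ± 0.374 RPKM in hid1, 1.15 ± 0.226 RPKM in WT, limma adjusted p = 0.0161) and BGAL10 (28.3 ± 4.71 RPKM in hid1, 18.4 ± 2.27 RPKM in WT, limma adjusted p = 0.0217) also rose. BGAL3 fell to 33.2 ± 3.91 RPKM in hid1, against 44.9 ± 3.55 RPKM in WT (-0.43, SE 0.12, limma adjusted p = 0.0388). Under the 12 other settings adjusted p reached 0.135 for BGAL3, 0.0671 for BGAL7 and 0.0764 for BGAL10. BGAL3 lost its call without hid1 replicate 1 or 2, without WT replicate 2 or 3 and without a filter, BGAL7 without hid1 replicate 1 or 3 or WT replicate 2, and BGAL10 without hid1 replicate 3 or a filter. The nearest relatives of BGAL4, BGAL12 (77.6% identical) and BGAL2 (73.8%), did not pass (limma adjusted p = 0.255 and 0.545).

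**Figure D2:**
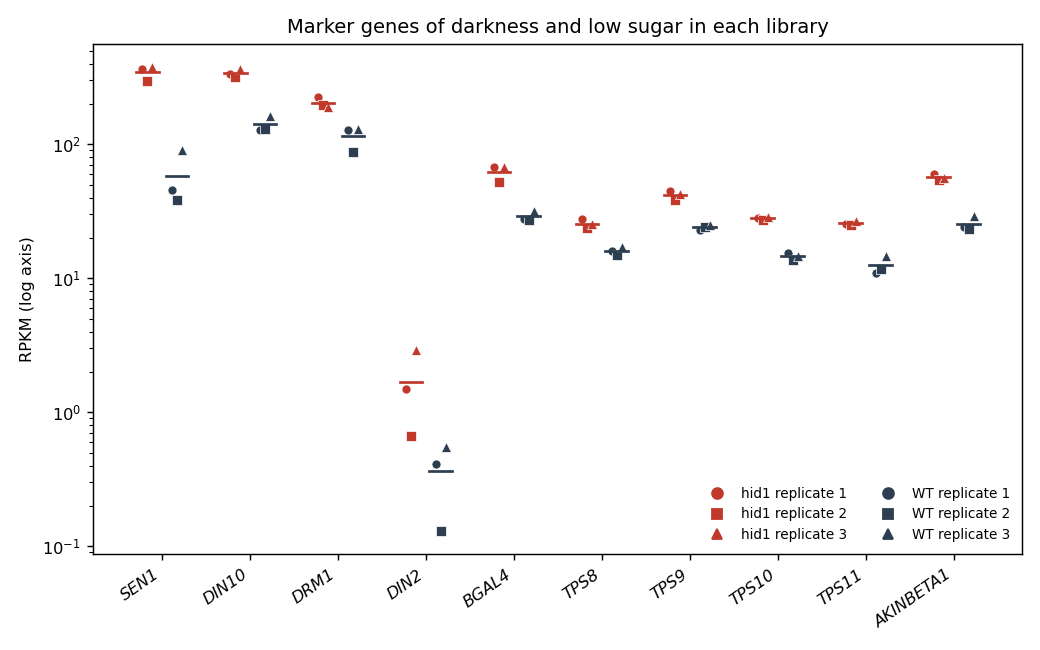
RPKM (log axis) of the 10 genes in each hid1 (red, left) and WT (dark, right) library, with marker shapes for replicates and bars for means. All hid1 points lie above all WT points of the same gene, with the widest gap for SEN1, whose WT libraries stop at 90.4 RPKM and whose hid1 libraries start at 295 RPKM.

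Set side by side, the 10 genes spanned log2 fold changes of 0.64 to 2.64, with a median of 0.95, against a median of 0.07 over all genes tested, whose 10th and 90th percentiles were -0.36 and 0.51. All hid1 libraries lay above all WT libraries for 10 of 10, where this held for 23.1% of all genes tested, and 9 of 10 met the limma threshold in the direction of hid1, where 9.41% of genes tested did. The exception was DIN2. Since the genes were picked for this difference, nothing is read from these counts. In hid1 the order of mean levels was SEN1, DIN10, DRM1, BGAL4, AKINBETA1, TPS9, TPS10, TPS11, TPS8 and DIN2. Libraries of neighbours in that order overlapped for SEN1 and DIN10, for BGAL4 and AKINBETA1, and for TPS11 and TPS8. The WT order was DIN10, DRM1, SEN1, BGAL4, AKINBETA1, TPS9, TPS8, TPS10, TPS11 and DIN2. There the neighbours overlapped in each case except SEN1 with BGAL4, TPS9 with TPS8, and TPS11 with DIN2. Together the 10 genes held 0.150%, 0.129% and 0.153% of a library's summed RPKM in hid1 and 0.0520%, 0.0462% and 0.0639% in WT.

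Replicates of one genotype were not used to pick the genes, and within WT the genes moved in part together. Among the hid1 libraries, replicate 2 was the lowest for 9 of 10 genes, and the highest was replicate 3 for 6 and replicate 1 for 4. Among the WT libraries, replicate 3 was the highest for 9 of 10 genes, TPS10 being the exception, and replicate 2 was the lowest for 7. Over all genes tested, hid1 replicate 3 was the highest hid1 library for 53.2% and WT replicate 3 the highest WT library for 23.9%. The 6 of 10 genes highest in hid1 replicate 3 lay near the first share, and nothing is read from that count. The share of all genes lowest in a given library was not computed, so the counts of lowest libraries have no background beside them. The mean deviation of the 10 genes from their own genotype mean was 0.06, -0.16 and 0.10 on the log2 scale in hid1 replicates 1, 2 and 3, and -0.04, -0.17 and 0.21 in WT replicates 1, 2 and 3. Without SEN1 it was 0.06, -0.15 and 0.09 in hid1, and -0.02, -0.13 and 0.15 in WT. The mean log2 level of all genes tested was 3.52, 3.51 and 3.63 in hid1 replicates 1, 2 and 3, and 3.49, 3.48 and 3.45 in WT replicates 1, 2 and 3. By that measure hid1 replicate 3 was the highest hid1 library for all genes too, whereas WT replicate 3 was the lowest WT library. The summed root markers other than IRT1 were lowest in replicate 2 of each genotype. Within WT they were highest in replicate 1, where no more than 1 of the 10 genes was highest. The part of root tissue in this spread was not tested.

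**Figure D3:**
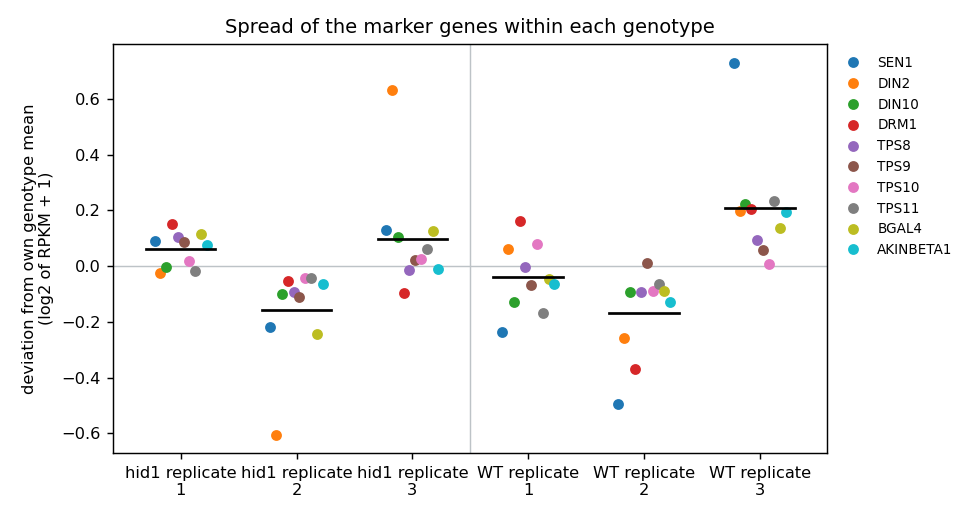
Deviation of each of the 10 genes from its own genotype mean (log2 of RPKM + 1) in the hid1 libraries (left) and the WT libraries (right), with black bars for the mean over genes. Nearly all points of hid1 replicate 2 and WT replicate 2 lie below 0 and all points of WT replicate 3 lie above 0, with SEN1 and DIN2 the farthest out.

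Other transcripts known to accumulate in darkness or at low sugar were tested in the same fit. Of 10 such genes, 8 rose, 0 fell and 2 missed the threshold (median log2 fold change 1.23). Of all genes tested, 9.41% were called higher and 4.21% lower. The list was chosen with earlier results of these data known, so nothing is read from its count. AT3G15450, annotated as an aluminum induced protein, rose to 456, 425 and 450.4 RPKM in hid1 libraries, against 145, 116 and 142 RPKM in WT libraries (1.72, SE 0.12, limma adjusted p = 2.2e-05). MCCA, a subunit of the enzyme that breaks down leucine, stood at 61.2, 50.6 and 57.9 RPKM in hid1 and 16.0, 15.0 and 19.1 RPKM in WT (1.70, SE 0.13, limma adjusted p = 3.71e-05). DIN3, a subunit of the branched-chain ketoacid dehydrogenase, rose to 24.3, 23.7 and 24.4 RPKM in hid1, against 9.79, 10.1 and 10.3 RPKM in WT (1.18, SE 0.11, limma adjusted p = 0.000100). ASN1 (DIN6), which stores nitrogen as asparagine in the dark, had the largest fold change of the list (2.85, SE 0.28, limma adjusted p = 0.000178). The hexose transporter gene STP1, repressed by sugar, rose to 206 ± 20.1 RPKM in hid1 against 70.1 ± 15.3 RPKM in WT (1.56, SE 0.16, limma adjusted p = 0.000199). The genes that did not pass were DIN9 (2.74, 1.73 and 3.22 RPKM in hid1, 1.23, 1.44 and 1.22 RPKM in WT, limma adjusted p = 0.0605) and DIN11 (2.27 ± 0.756 RPKM in hid1, 2.86 ± 0.703 RPKM in WT, limma adjusted p = 0.453). DIN11 was the only DIN gene among both sets with a lower mean in hid1, and its libraries overlapped. In this list too, replicate 3 was the highest WT library for 8 of 10 genes.

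**Figure D4:**
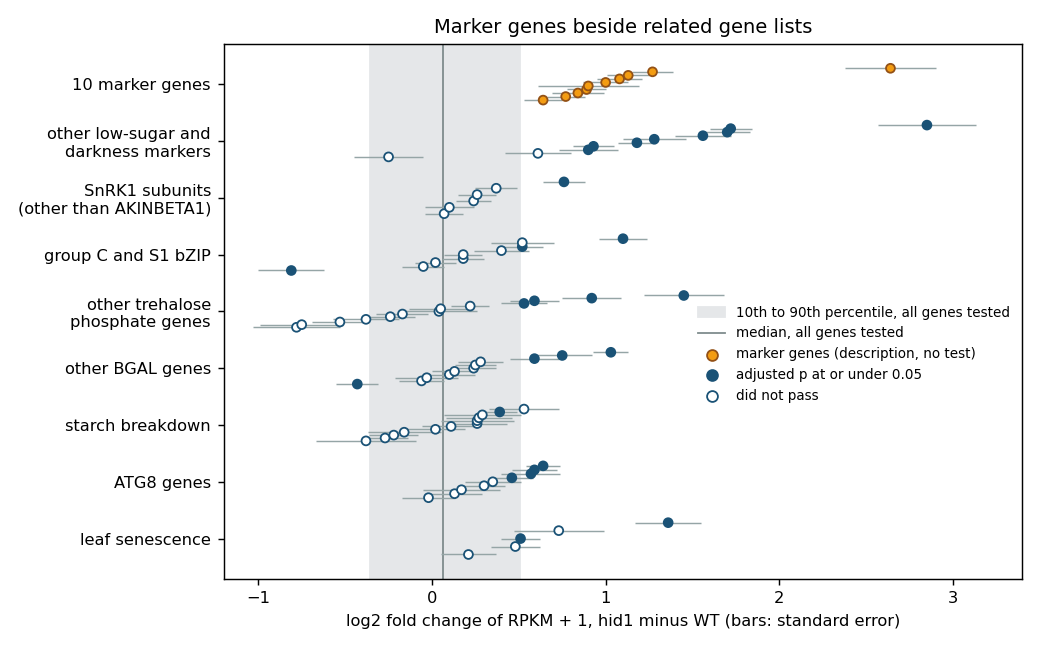
Log2 fold change (RPKM + 1, hid1 minus WT) with standard error for the 10 genes (orange, no test) and for related lists, filled where the limma adjusted p was 0.05 or less. The grey band is the 10th to 90th percentile of all genes tested, -0.36 to 0.51; all 10 genes and 9 of the 10 other darkness and low-sugar markers lie to its right.

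Of 9 bZIP factors of groups C and S1, 2 rose, 1 fell and 6 did not pass (median 0.18). BZIP1, an S1 factor whose transcript is known to rise at low sugar, was at 31.9, 36.9 and 26.1 RPKM in hid1, against 14.4, 13.2 and 14.7 RPKM in WT (1.10, SE 0.14, limma adjusted p = 0.000607). BZIP11, an S1 factor whose translation is repressed by sucrose, fell to 6.06, 3.56 and 6.60 RPKM in hid1, against 11.0, 10.04 and 8.91 RPKM in WT (-0.81, SE 0.19, limma adjusted p = 0.0196). BZIP25, of group C, rose to 38.0 ± 1.48 RPKM in hid1 against 26.3 ± 3.41 RPKM in WT (limma adjusted p = 0.0172). BZIP63, a group C factor that SnRK1 phosphorylates, was at 31.3 ± 1.86 RPKM in hid1 and 27.5 ± 2.35 RPKM in WT (limma adjusted p = 0.308). BZIP11 lost its call without WT replicate 2 or a filter (adjusted p up to 0.0731), and BZIP25 without hid1 replicate 2 or 3 or WT replicate 2 or 3 (up to 0.0690).

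ATG8 proteins coat the membranes of autophagy, by which starved cells recycle their contents. Of 9 ATG8 genes, 4 rose, 0 fell and 5 did not pass (median 0.35). ATG8E was at 41.7, 44.6 and 41.9 RPKM in hid1, against 25.3, 28.8 and 27.0 RPKM in WT (0.64, SE 0.10, limma adjusted p = 0.00294). ATG8A, ATG8F and ATG8H also rose (limma adjusted p = 0.0126, 0.0318 and 0.0477), with log2 fold changes of 0.59, 0.46 and 0.57. ATG8A lost its call without hid1 replicate 3 or WT replicate 3 (adjusted p up to 0.0568), ATG8F in 6 and ATG8H in 8 of the 12 other settings (up to 0.109 and 0.165). For ATG8F these included leaving out hid1 replicate 1 or 3 or WT replicate 1 or 3, and for ATG8H leaving out any one library other than WT replicate 1. The count of ATG8 genes that rose lay between 1 and 4 over all settings.

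Since SEN1 and DIN2 are also read as senescence genes, other markers of leaf senescence were examined. SAG12, a protease gene of late senescence, was listed at 0 in all 6 libraries, and SAG13 was at 0.36 RPKM or less in each. Of the 5 tested markers 2 rose, 0 fell and 3 did not pass (median 0.51). ORE1, a NAC factor that promotes senescence, rose to 14.2, 11.5 and 12.4 RPKM in hid1, against 4.30, 3.02 and 6.0 RPKM in WT (1.36, SE 0.19, limma adjusted p = 0.00120). PAO, which opens the chlorophyll ring, rose to 28.5 ± 1.62 RPKM in hid1 against 19.7 ± 1.39 RPKM in WT (0.51, SE 0.11, limma adjusted p = 0.0126). Both calls held under each of the 12 other settings. NAP, NYE1 and WRKY53 did not pass, with limma adjusted p of 0.0887, 0.399 and 0.0507.

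Of 12 genes of starch breakdown, 1 rose, 0 fell and 11 did not pass (median 0.19). BAM1, a chloroplast beta-amylase, was at 35.3, 34.95 and 35.1 RPKM in hid1 and 28.4, 25.4 and 25.9 RPKM in WT (0.39, SE 0.10, limma adjusted p = 0.0301), and lost its call in 7 of the 12 other settings, which included both scalings and leaving out any one library other than WT replicate 1 (adjusted p up to 0.109). Among 4 genes known to be induced by sugar, BAM5 was below the level tested, and GPT2, APL3 and TPS5 did not pass in limma (median -0.38; 0 of 3 at an unadjusted p of 0.05 or less). APL3, a starch synthesis gene, was at 2.52, 1.83 and 6.54 RPKM in hid1 and 4.73, 6.45 and 4.71 RPKM in WT (-0.57, SE 0.30, limma adjusted p = 0.242). It passed as lower without hid1 replicate 3 (adjusted p = 0.0202). Of 6 tested guard cell and stomatal lineage markers, 0 passed in limma and 2 had an unadjusted p of 0.05 or less. The 2 most abundant were TMM (0.42, limma adjusted p = 0.0606, 0.0450 with the replicate block) and MYB60 (0.08, limma adjusted p = 0.757), and the summed RPKM of all 7 markers was 47.0, 48.1 and 51.7 in hid1 and 45.3, 43.1 and 45.4 in WT. Log2 fold changes were positive for 3 of the 6. TMM had all hid1 libraries above all WT libraries, and KAT1 had them all below (-0.32, limma adjusted p = 0.161).

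Genes outside the 10 whose pattern over the 6 libraries was most like theirs were found by standardising each gene over the libraries, which removes the size of the change, and taking the root mean square difference from the mean pattern of the 10. The nearest of 12703 genes with a mean of 5 RPKM or more were EMB2770, a splicing factor gene (0.049), AT3G50370, uncharacterized (0.073), AGD5, an ARF-GAP gene (0.074), AT1G02660, a hydrolase gene (0.076), and AT5G63195, a noncoding RNA (0.079). EMB2770 stood at 18.4 ± 0.432 RPKM in hid1 and 14.5 ± 0.555 RPKM in WT, and AT5G63195 at 56.5 ± 5.98 RPKM in hid1 and 24.1 ± 3.05 RPKM in WT. The 10 genes themselves lay at 0.101 (BGAL4) to 0.531 (DIN2), with a median of 0.143. The mean pattern is made from these genes and holds the difference they were picked for, so their nearness to it is fixed by the choice.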

How the data were processed

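The authors deposited 1 table of RPKM per library, per the file headers, for 3 hid1 and 3 WT libraries, whose group and number are those of their titles. Reads were mapped to TAIR10 with TopHat2 2.0.9, and Cuffdiff 2.0.0 is also named, per the submitters' processing notes. The read counter, gene annotation, RPKM denominator and use of strand were not found in the sources, and RPKM depends on each, most of all for gene families and overlapping genes.

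The 10 genes and all gene lists were chosen with earlier results of these data known. Log2(RPKM + 1) was tested with limma 3.58.1 in R 4.3.3, using a mean-variance trend and a single genotype term. Tested were the 18871 genes whose mean reached 1 RPKM in hid1 or in WT. The Benjamini-Hochberg adjustment ran over all of them, with calls at 0.05. Named were the 10 genes, up to 4 genes per list with the smallest adjusted p (the 2 most abundant where none passed), and the 5 nearest patterns. Other named genes were picked with their values in view. A result of the raffinose synthesis list is not reported here, nor are that list's counts. The fit was tested on simulated data, with 50 genes changed at each size among the more abundant genes. It recovered 26% of 1.5-fold changes, 78% of 2-fold changes and 96% of 4-fold changes. A gene that did not pass is therefore not shown to be unchanged.

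Gene names, exon lengths and sequences came from RefSeq TAIR10.1, which matched 32835 of the 33323 IDs. The tables hold no coordinates, so positions are those of TAIR10.1. Depth was estimated by taking the commonest low product of RPKM and exon length as 1 read. Coding sequences were aligned end to end with Biopython 1.88. Other settings tried were a pseudocount of 0.1 or 5, no low-value filter, quantile normalization, median-ratio scaling, a replicate block, and fits that omit a library in turn.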

Additional observations from a re-analysis of the deposited data

How the results depend on the processing

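The median log2 fold change of the 10 genes lay between 0.82 (pseudocount 5) and 1.08 (pseudocount 0.1) under the settings that kept all libraries, and between 0.90 and 1.09 when each library was left out in turn. No gene of the 10 changed sign in any of the 12 settings. The count of genes changed, 2569, was 1517 without hid1 replicate 2, 1614 without hid1 replicate 3, 1430 without WT replicate 2 and 1562 without WT replicate 3, and reached 3260 without WT replicate 1. Quantile normalization gave 1310 genes higher and 1338 lower, median-ratio scaling 1340 and 1236, and the median of all genes tested moved from 0.066 to -0.015 and -0.006. With the replicate number as a block, 3635 genes were called and the median of the 10 stayed at 0.95. Deviations of same-numbered libraries correlated across genes at 0.315, 0.061 and 0.105 for replicates 1, 2 and 3. The value for replicate 1 was the highest of all pairings, and WT replicate 2 with hid1 replicate 3 came next (0.255). These values do not settle whether the numbers are pairs. The labels give no batch, and the main fit used genotype only, with the block as an alternative. A tally of values under other settings covered the 10 genes, the genes named by rule from each list, and the counts of genes changed per list. Of these values, 92 no longer passed, 2 newly passed, 56 were marked as moved and 570 did none of these. Most of the 56 were counts of genes changed, which have no spread and were marked only when the count changed by a large factor. The 570 therefore hold counts that changed, such as 3635 genes with the replicate block against 2569. They also hold the trehalose phosphate list, with 4 higher and 0 lower in the main fit and 3 higher and 3 lower with quantile normalization. The 10 genes had no threshold in this tally. While called, 0 changed sign, but a value that did not pass could cross 0 within the 570. MYB60 did so, at 0.08 in the main fit and -0.03 with quantile normalization. TPPB, TPPE and TPPH, which passed as lower under some settings, were not in the tally. Depth limits DIN2 most, at about 6 reads in WT replicate 2.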

Other observations

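Of 12 starch breakdown genes, 11 were highest in hid1 replicate 3 among the hid1 libraries, where 53.2% of all genes tested were. The same held for 10 of 13 trehalose phosphate genes outside the 10 markers, 8 of 11 BGAL genes other than BGAL4, 7 of 9 ATG8 genes and 5 of 6 SnRK1 subunit genes other than AKINBETA1. For the starch genes the mean log2 level of the list was 4.08, 4.05 and 4.66 in hid1 replicates 1, 2 and 3, against 4.05, 4.23 and 4.23 in WT replicates 1, 2 and 3. GWD1, which phosphorylates starch at the start of its breakdown, was at 27.3, 28.4 and 46.0 RPKM in hid1 and at 18.1, 22.9 and 27.4 RPKM in WT. BAM3, the main chloroplast beta-amylase of leaves at night, was at 45.4, 46.4 and 101.8 RPKM in hid1 and at 85.0, 98.4 and 56.8 RPKM in WT, and did not pass (limma adjusted p = 0.419). The 3 tested genes known to be induced by sugar were also highest in hid1 replicate 3 among the hid1 libraries, with a mean log2 level of 2.08, 1.82 and 2.80 in hid1 and 2.37, 2.51 and 2.39 in WT. Of the 10 darkness and low-sugar marker genes, 6 were highest in hid1 replicate 3 among the hid1 libraries, with a mean log2 level of 5.80, 5.59 and 5.84 in hid1, against 4.58, 4.46 and 4.83 in WT. The pattern was seen after the values were known.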
